A study of Mus musculus with 6 samples.

Results

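Lacc1 and 8 genes that convert or carry purine nucleosides were followed in large peritoneal macrophages taken from mice infected with E. coli, in PAC knockout and floxed control libraries. The 9 genes were taken by symbol from the 20336 genes of the deposited table. Lacc1 was selected on its values in this same genotype comparison, in which it was among the genes of smallest p. Its difference is therefore given as a description, and no test of it is read. Ada, Pnp, Adk, Hprt, Xdh, Slc28a2, Slc29a1 and Slc29a3 were named for their function in the pathway, with earlier results of these data known. All 9 passed the filter on low counts.

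Purine nucleosides such as adenosine and inosine are made when nucleotides and nucleic acids are broken down, and cells either rebuild nucleotides from them or degrade them to urate. Adenosine is deaminated to inosine, inosine is split into hypoxanthine and ribose phosphate, and hypoxanthine is either salvaged or oxidised. LACC1, also called FAMIN, is a macrophage enzyme reported to combine adenosine deaminase and purine nucleoside phosphorylase activities in the same protein. In macrophages, purine nucleosides also reach the cytosol from lysosomes, where nucleic acids of engulfed material are digested.

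The cells were sorted by surface staining 30 min after intraperitoneal infection, and polyA RNA was sequenced. The control libraries (genotype label PAC F/F, 3 libraries) came from mice with a floxed PAC gene. The knockout libraries (genotype label Cxcr3-PAC-/-, 3 libraries) came from mice with the conditional deletion, for which the series' design text gives Cx3cr1 in place of Cxcr3. Both groups were infected, and PAC is the proton-activated chloride channel, listed under its older name Tmem206. The labels used here state neither mouse strain, sex and age nor whether each library is a separate mouse, so the spread between libraries may be technical. These infected groups are the only groups of the series, so no libraries from PBS-treated mice were available for comparison.

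Counts summed to between 15981530 and 20648832 per library. Tmem206 had 6.33, 12.2 and 8.16 CPM (counts scaled to library size) in the control, against 4.27, 6.13 and 5.49 CPM in the knockout. It was lower in each knockout library, narrowly for the nearest pair, and still present. Its log2 fold change was -0.75 (standard error, SE, 0.31). With an adjusted p of 0.997 in edgeR's quasi-likelihood test, Tmem206 itself was not called. All 8 markers of large peritoneal macrophages were present, and their summed level was 18550 to 24310 CPM in the control and 21810 to 24430 CPM in the knockout libraries. Gata6, the defining transcription factor of these cells, had 59.4 to 94.8 CPM. Markers of small peritoneal macrophages and monocytes summed to 1041 to 1650 CPM in the control, against 503 to 894 CPM in the knockout, without overlap, but the 8 list members did not move alike. Groups were apart for 3 (Ccr2, Cd226 and F13a1, lower in the knockout) and overlapped for 5. Over all genes tested, 4.86% had groups apart with the knockout lower. Without F13a1 the sums overlapped, at 468 to 660 CPM and 342 to 759 CPM. Most of each such sum came from the MHC class II gene H2-Ab1, whose groups overlapped. B cell markers summed to 39.3 to 441 CPM and 60.5 to 259 CPM, highest in control replicate 2 and knockout replicate 1. In these sorted bulk samples, fewer cells of a type and less RNA per cell cannot be told apart.

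Lacc1 (ENSMUSG00000044350) lies on GRCm38 chromosome 14 from 77024200 to 77036904 on the minus strand. It starts head to head with Ccdc122, a coiled-coil gene on the plus strand whose first exon shares 133 bases with a retained-intron transcript of Lacc1 in GENCODE vM21. The sequence between the first exons of their protein-coding transcripts is shown because both genes start from its edges. It covers chr14:77036642-77036771 (130 bases, RefSeq GRCm38.p6), is written 5′ to 3′ on the strand of Lacc1, and has its CpG dinucleotides in capitals.

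Lacc1-Ccdc122 interval: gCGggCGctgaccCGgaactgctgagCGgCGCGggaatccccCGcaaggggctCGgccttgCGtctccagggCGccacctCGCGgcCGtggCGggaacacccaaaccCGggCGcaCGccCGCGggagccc

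The interval held 19 CpG dinucleotides and 77.7% of its bases were G or C. Also shown are the 250 bases before the RefSeq starts of Slc28a2 (chr2:122426185-122426434, plus strand) and of its neighbour Slc28a2b (chr2:122484691-122484940, plus strand), which is listed in the deposited table as Gm14085. The pair are neighbouring copies of a nucleoside transporter gene whose transcripts share long stretches but whose upstream sequences do not. Capitals mark matches to CCAAT and to the ETS core AGGAAGT, on either strand.

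Slc28a2 upstream: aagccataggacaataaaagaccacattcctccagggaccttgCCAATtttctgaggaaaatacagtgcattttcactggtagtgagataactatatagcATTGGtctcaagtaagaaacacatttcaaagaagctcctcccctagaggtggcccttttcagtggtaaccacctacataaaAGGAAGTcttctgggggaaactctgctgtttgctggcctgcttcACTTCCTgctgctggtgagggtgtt

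Slc28a2b upstream: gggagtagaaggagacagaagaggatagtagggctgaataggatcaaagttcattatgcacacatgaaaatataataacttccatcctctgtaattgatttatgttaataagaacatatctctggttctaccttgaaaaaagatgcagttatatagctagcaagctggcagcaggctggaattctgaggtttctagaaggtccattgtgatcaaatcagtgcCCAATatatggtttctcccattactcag

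The upstream sequences had no 11-base word in common. Of the 9 genes, 8 had a RefSeq start, and Xdh did not. The 250 bases before the first listed start of each were searched on both strands for 7 short motifs. These were the ETS core written AGGAAGT, the core of the interferon-stimulated element written GAAANNGAA, and the AP-1 site written TGANTCA. Also searched were the E-box written CACGTG and the box written CCAAT. The GC box was searched as GGGCGG. The remaining motif, the TATA box, was searched as TATAAA. The CCAAT box was present in 5 of 8 and in 34.5% of 27025 promoters. GGGCGG was also present in 5 of 8 and in 32.9% of all promoters. AGGAAGT occurred in Slc28a2 alone of the 8, at 2 positions, and in 7.80% of all promoters. The interferon-stimulated element core was found in Pnp alone and in 7.16% of all promoters. The AP-1 site (6.87% of all promoters), the E-box (6.05%) and the TATA box (3504 of 27025 promoters) were found in 0 of 8. None of these letters was found in the 250 bases before Lacc1.

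The 9 genes covered a wide range of levels. The authors' FPKM scale divides by gene length, the union of all annotated exons of a gene. That length was 3644 bases for Lacc1 (3 transcripts) and 8526 for Adk (10), so levels of genes with many transcripts may be understated. On this scale Xdh was highest with a mean of 84.0 over the 6 libraries, followed by Hprt (77.2), Lacc1 (38.1) and Slc28a2 (25.3). Pnp (10.8), Slc29a3 (6.93), Slc29a1 (4.86), Adk (4.73) and Ada (0.885) followed. Among 12786 tested genes, Xdh ranked 555 and Ada 10591 by mean FPKM. The FPKM ranges of Hprt and Lacc1, Slc28a2 and Pnp, Pnp and Slc29a3, and Adk and Ada did not overlap. Xdh and Hprt could not be ordered by their libraries, each being higher in 3 of 6. Slc29a1 and Adk likewise each led in 3 of 6. Slc29a3 was above Slc29a1 in all 6 libraries, although their ranges touched.

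**Figure D1:**
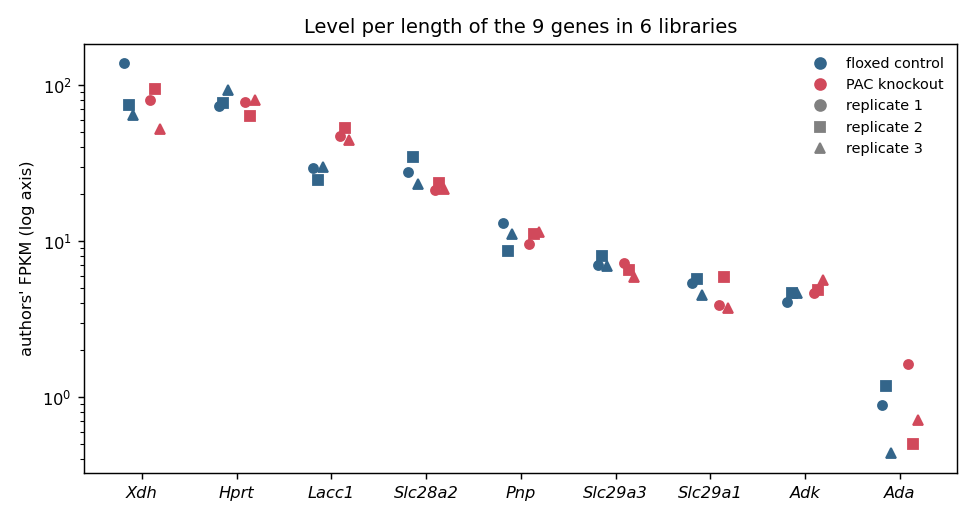
Level of each gene in each library, as the authors' FPKM on a log axis, with floxed control in blue, PAC knockout in red and a marker shape per replicate. Xdh and Hprt lead at means of 84.0 and 77.2 FPKM, and Ada is lowest at 0.885 FPKM.

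Lacc1 and Slc28a2 were close in FPKM in the control and apart in the knockout. In the control, Slc28a2 averaged 28.5 ± 5.66 FPKM and Lacc1 28.0 ± 3.01 FPKM (SD, n = 3), closer than their spread. In the knockout, Lacc1 averaged 48.1 ± 4.21 FPKM and Slc28a2 22.1 ± 1.23 FPKM (SD, n = 3). Lacc1 was higher than Slc28a2 in 5 of 6 libraries, control replicate 2 being the exception.

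Lacc1 had 93.9, 79.5 and 98.7 CPM in control replicates 1, 2 and 3, from 1825, 1372 and 1875 counts. It had 153, 171 and 146 CPM in knockout replicates 1, 2 and 3, from 2589, 2701 and 2638 counts. Every knockout library was above every control library, and the lowest knockout value exceeded the highest control value by more than either group's range. The knockout mean was 1.73 times the control mean, and its log2 fold change was 0.79 (standard error, SE, 0.13). Over 13 alternative settings it ran from 0.70 (without control replicate 2) to 0.86 (without control replicate 3). Groups that did not overlap with the knockout higher made up 4.47% of all genes tested, and with the knockout lower 4.86%. In the authors' deposited table Lacc1 ranked 3 by p-value (log2 fold change 0.79, adjusted p 0.00172), in a table where 0.108% of genes with a p-value had an adjusted p under 0.05. Since these values chose the gene, nothing is read from them.

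The marker sums of small peritoneal macrophages and monocytes, given above, separated the genotypes in the opposite direction to Lacc1. With F13a1 left out they overlapped, H2-Ab1 then making up most of each sum, while Ccr2 and Cd226 were each apart singly. Ccr2, the monocyte chemokine receptor, had 54.4 to 122 CPM in the control, against 17.1 to 34.6 CPM in the knockout. F13a1, the coagulation factor XIII gene of monocyte-derived macrophages, had 1061, 574 and 492 CPM in the control, against 122, 161 and 367 CPM in the knockout. The other large member, the MHC class II gene H2-Ab1, had 484, 308 and 558 CPM in the control and overlapping values of 695, 280 and 451 CPM in the knockout. Fcgr1, a high-affinity Fc receptor, overlapped too, at 13.4 to 23.7 and 18.7 to 31.6 CPM. Neutrophil markers summed to 1.42 to 3.81 CPM in the control, against 5.21 to 10.2 CPM in the knockout, low in both and without overlap. These sums came mainly from S100a8 and S100a9, each apart narrowly, and S100a9 was at 0 CPM in control replicates 2 and 3. Over all genes tested, 4.47% had groups apart with the knockout higher. The highest control and lowest knockout values were 3.295 and 3.38 CPM for S100a8, and 0.463 and 0.499 CPM for S100a9. Camp was instead highest in control replicate 2, at 0.522 CPM. The part of these cell types in the Lacc1 difference was not tested.

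The nearest genes to Lacc1 among those of the deposited table differed from it in level. Ccdc122 had 2.57, 2.03 and 2.95 CPM in the control, against 3.44, 2.91 and 3.44 CPM in the knockout. The groups overlapped by a narrow margin, and the log2 fold change was 0.37 (SE 0.40). The exonic bases shared with Ccdc122 are 3.65% of the exon length of Lacc1 and 6.70% of that of Ccdc122. The strand setting of the counting is not given, so reads there cannot be assigned to either gene. On the other side Tsc22d1, a TGF-beta-responsive transcription regulator 516434 bases away, had a log2 fold change of -0.29 (SE 0.18), with overlapping groups. The 2 remaining neighbours, Enox1 and 4930431P22Rik, had at most 9 counts in any library.

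**Figure D2:**
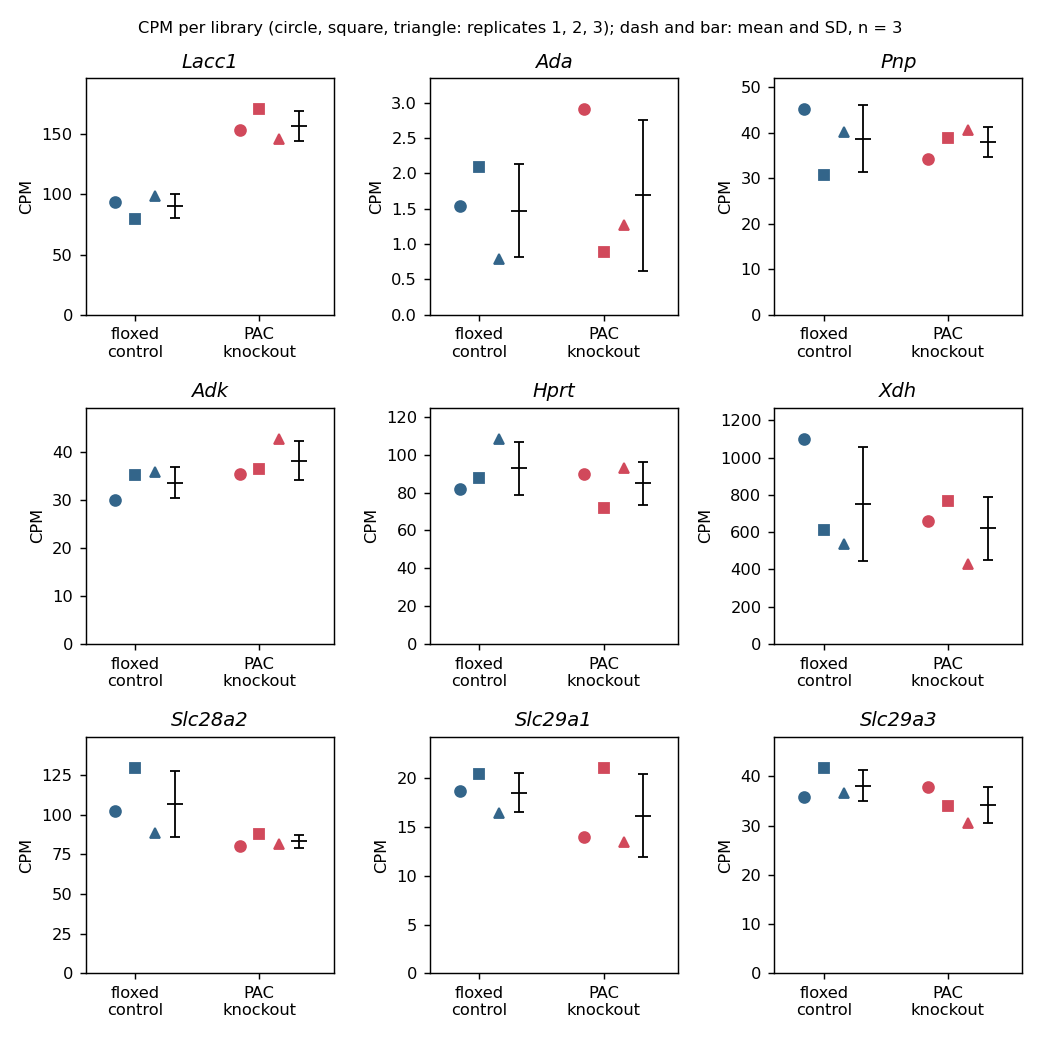
CPM of the 9 genes in each library, with floxed control in blue and PAC knockout in red, a marker shape per replicate, and the mean and SD (n = 3) beside each group. Lacc1 stands apart between genotypes (79.5 to 98.7 against 146 to 171 CPM), Slc28a2 is narrowly apart, and the other 7 genes overlap.

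The other 8 genes showed no called difference between genotypes. With edgeR's quasi-likelihood test, 0 of the 8 passed an adjusted p of 0.05, each having an adjusted p of 0.997, and DESeq2 and limma-voom also called 0. Over all genes, 0 of 12786 (0%) passed with edgeR, 21 of 11657 (0.18%) with DESeq2 and 0 of 12786 with limma-voom, so a count of 0 among 8 is near the background. Of the 8, 1 had an unadjusted edgeR p under 0.05, Slc28a2, as had 4.18% of all genes tested. Values were higher in the knockout for 2 of the 8 and lower for 6, with a median log2 fold change of -0.14, against 48.8% higher and a median of -0.0079 over all genes tested.

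The separate enzymes that act on adenosine and inosine had overlapping groups. Ada, the classical adenosine deaminase (chromosome 2, 163726584 to 163750239), was barely detected, with 30, 36 and 15 counts in the control and 49, 14 and 23 in the knockout. Its levels were 1.54, 2.09 and 0.790 CPM in the control, against 2.91, 0.885 and 1.28 CPM in the knockout. Ada was highest in knockout replicate 1 and control replicate 2, which also had the highest B cell marker sums (259 and 441 CPM), and the part of those cells was not tested. Its log2 fold change was 0.20 (SE 0.65), and turned to -0.44 without knockout replicate 1 and to -0.10 without control replicate 3.

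Pnp, the purine nucleoside phosphorylase that splits inosine and guanosine (chromosome 14, 50931082 to 50965237), had 45.2, 30.8 and 40.2 CPM in the control, against 34.3, 38.9 and 40.6 CPM in the knockout. The knockout values lay within the control range, and the log2 fold change was -0.03 (SE 0.16). Pnp2, a near copy, had 3, 0 and 0 counts in the control and 0, 1 and 0 in the knockout, which allow up to 0.158 to 0.178 CPM for the 4 libraries at 0 counts (3 counts, counting error only). Of the distinct 50-base stretches in Pnp transcripts, 22.0% also occur in transcripts of other genes, most often Gm49342 (669 of 878). Gm49342 also overlaps 18.0% of the exon length of Pnp on the same strand. Part of the reads of Pnp could thus have been dropped or shared. Adk, adenosine kinase, which returns adenosine to AMP (chromosome 14, 21052574 to 21448569), had 30.1, 35.2 and 35.9 CPM in the control. In the knockout it had 35.4, 36.5 and 42.9 CPM. The log2 fold change of Adk was 0.18 (SE 0.14), with overlapping groups.

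Per length, the level of Lacc1 was above those of Pnp, Adk and Ada in every library. Its mean was 38.1 FPKM, against 10.8, 4.73 and 0.885 FPKM for the separate phosphorylase, kinase and deaminase. The lowest Lacc1 value, 24.5 FPKM, exceeded the highest value of Pnp. The reads of Pnp that could have been dropped or shared, and the exon union used as length, limit this comparison.

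Hypoxanthine stands at the branch between salvage and urate, and transcripts of both branch enzymes were abundant. Hprt, the hypoxanthine and guanine phosphoribosyltransferase (chromosome X, 52988137 to 53021659), had 82.1, 87.8 and 109 CPM in the control, against 89.8, 72.1 and 93.1 CPM in the knockout. Its groups overlapped, with a log2 fold change of -0.13 (SE 0.15) that reached 0.0037 without control replicate 3. Xdh, xanthine dehydrogenase, which oxidises hypoxanthine and xanthine to urate (chromosome 17, 73883895 to 73950196), had 1102, 613 and 539 CPM in the control, against 662, 766 and 432 CPM in the knockout. Control replicate 1 stood apart, with 21404 Xdh counts against 10572 and 10241 in the other controls. The log2 fold change was -0.28 (SE 0.31), and turned to 0.11 without control replicate 1. Control replicate 1 also had the highest small macrophage and monocyte marker sum (1650 CPM), of which F13a1 gave 1061 CPM. Without F13a1 its sum was 589.5 CPM, below control replicate 3 (660.2 CPM) and knockout replicate 1 (759.2 CPM). The part of these cells in its Xdh level was not tested.

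Xdh, whose average log2 CPM was 9.42, varied more within groups than most tested genes above a cut well below its own level. Its pooled SD on log2 CPM was 0.49, larger than that of 96.1% of the 6445 tested genes whose average log2 CPM was 4 or more. The SDs of Pnp (0.22), Hprt (0.20), Slc28a2 (0.20), Adk (0.14) and Slc29a3 (0.14) lay between the quartiles of those genes, 0.13 and 0.26. That of Slc29a1 was 0.27, above them.

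The transporters had lower mean values in the knockout, though none was called. Slc28a2, the sodium-coupled CNT2 that concentrates purine nucleosides in the cell (chromosome 2, 122426477 to 122461137), had 102, 129 and 88.7 CPM in the control. In the knockout it had 80.2, 87.8 and 81.5 CPM. The groups did not overlap, but the highest knockout value, 87.8, was just under the lowest control value, 88.7, and control replicate 2 was the highest. The log2 fold change was -0.36 (SE 0.15, unadjusted p = 0.0360 and adjusted p = 0.997 with edgeR), and it fell in size to -0.20 without control replicate 2. Slc29a1, the equilibrative transporter ENT1 of the cell surface (chromosome 17, 45585200 to 45599606), had 18.7, 20.5 and 16.4 CPM in the control, against 13.99, 21.1 and 13.5 CPM in the knockout. Knockout replicate 2 held the highest value of all, and the log2 fold change was -0.20 (SE 0.22). Without that library it was -0.43, and without knockout replicate 3 it was -0.08. Slc29a3, the lysosomal transporter ENT3 (chromosome 10, 60712072 to 60752794), had 35.9, 41.7 and 36.6 CPM in the control, against 37.8, 33.9 and 30.6 CPM in the knockout. Its log2 fold change was -0.16 (SE 0.14), with overlapping groups. Of these transporters the lysosomal one was the steadiest across libraries, its highest value being 1.36 times its lowest.

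Gm14085, the neighbour and near copy of Slc28a2, behaved differently from it and is named after its values were seen. It had 9, 195 and 206 counts in control replicates 1, 2 and 3, and 2 counts in each knockout library. In CPM that was 0.463, 11.3 and 10.8 in the control and 0.119, 0.126 and 0.111 in the knockout. Control replicate 1 thus lay near the knockout libraries and far from the other controls. The gene did not pass the filter of the edgeR fit. In the authors' deposited table it had the smallest p-value of all genes, at a log2 fold change of -5.99 (adjusted p 1.55e-06), while its control libraries were split as described. The intervening pseudogene Bambi-ps1 had 5.79 to 7.98 CPM in the control, against 6.34 to 7.20 CPM in the knockout.

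Slc28a2 and Gm14085 share 1498 distinct 50-base stretches, 35.4% of those in Slc28a2 transcripts and 30.3% of those in Gm14085, so their counts are uncertain to that extent. Adding the counts of both genes gave 103, 141 and 99.6 CPM in the control, against 80.3, 87.9 and 81.6 CPM in the knockout. The log2 ratio of the group means was -0.46 for the sum and -0.36 for Slc28a2 alone.

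**Figure D3:**
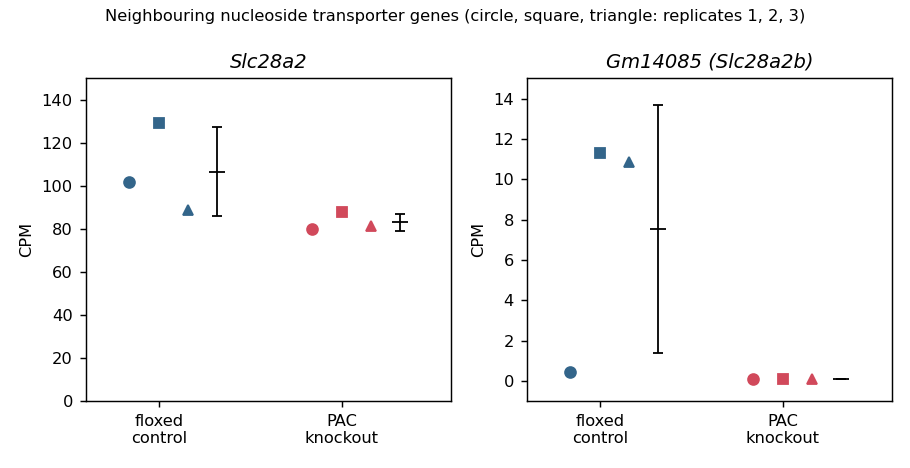
CPM of Slc28a2 (left) and its neighbour Gm14085 (right) in each library, with the mean and SD (n = 3) beside each group. Slc28a2 is present in all libraries at 80.2 to 129 CPM, whereas Gm14085 is near 11 CPM in 2 control libraries and under 0.5 CPM in control replicate 1 and in the knockout.

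Other genes were read on 7 lists chosen by function, 5 of purine enzymes and nucleoside transporters, 1 of pyrimidine nucleoside enzymes and 1 of reported LACC1 partners. Of 59 in the table, 54 were tested with edgeR, and 0 passed in either direction, as over all genes. None passed with limma-voom or, among the 52 with an adjusted p, with DESeq2. An unadjusted edgeR p under 0.05 was found for 2, against 4.18% of all genes tested. Values were higher in the knockout for 32 and lower for 22, with a median log2 fold change of 0.05, against -0.0079 over all genes tested. Groups did not overlap for 2 with the knockout higher (3.70%, against 4.47% of all genes) and for 4 with the knockout lower (7.41%, against 4.86%).

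Purine synthesis up to IMP had 7 of 10 genes with higher values and a median of 0.07. The values ran from -0.28 (SE 0.19) for Gart, a trifunctional enzyme of the pathway, to 0.32 (SE 0.24) for Ppat, the amidotransferase of the committed step. Paics was the most abundant, at 88.5 ± 11.7 CPM in the control, against 99.9 ± 14.1 CPM in the knockout (SD, n = 3). The steps from IMP to AMP and GMP had 1 of 5 genes higher and a median of -0.09. They ran from -0.20 (SE 0.13) for Adssl1 to 0.06 (SE 0.12) for Impdh2, the inosine monophosphate dehydrogenase. Adss, an adenylosuccinate synthase, was the most abundant of these, at 109 ± 4.53 and 95.8 ± 12.5 CPM.

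Salvage enzymes and nucleotide kinases had 5 of 10 genes higher and a median of -0.07. Nme2, a nucleoside diphosphate kinase of low level here, had the lowest value at -0.92 (SE 0.82). The most abundant, the mitochondrial kinase Ak3, averaged 60.6 ± 5.05 and 62.2 ± 7.09 CPM. Mtap, which splits methylthioadenosine, a nucleoside that LACC1 is also reported to cleave, stood at -0.15 (SE 0.22).

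The breakdown enzymes had 9 of 15 genes higher and a median of 0.08, and held the most abundant gene of all these lists. Gda, guanine deaminase, which makes xanthine from guanine and so feeds the reaction of Xdh, had 1598, 1319 and 1274 CPM in the control, against 1162, 1299 and 1128 CPM in the knockout. Its lowest FPKM, 205, was above the highest of Xdh, 138. Like Xdh, it was highest in control replicate 1, and its log2 fold change was -0.22 (SE 0.14). Nt5c3, a cytosolic nucleotidase known mainly for pyrimidine nucleotides, had 12.2, 12.8 and 13.2 CPM in the control, against 20.7, 18.3 and 18.9 CPM in the knockout. The groups did not overlap, and its log2 fold change was 0.60 (SE 0.18). Ahcyl2, a relative of adenosylhomocysteinase, had the lowest value of the list at -0.35 (SE 0.13). These are the 2 genes with an unadjusted edgeR p under 0.05, 0.00619 and 0.0253, and neither passed over all genes, with an adjusted p of 0.997 for each.

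**Figure D4:**
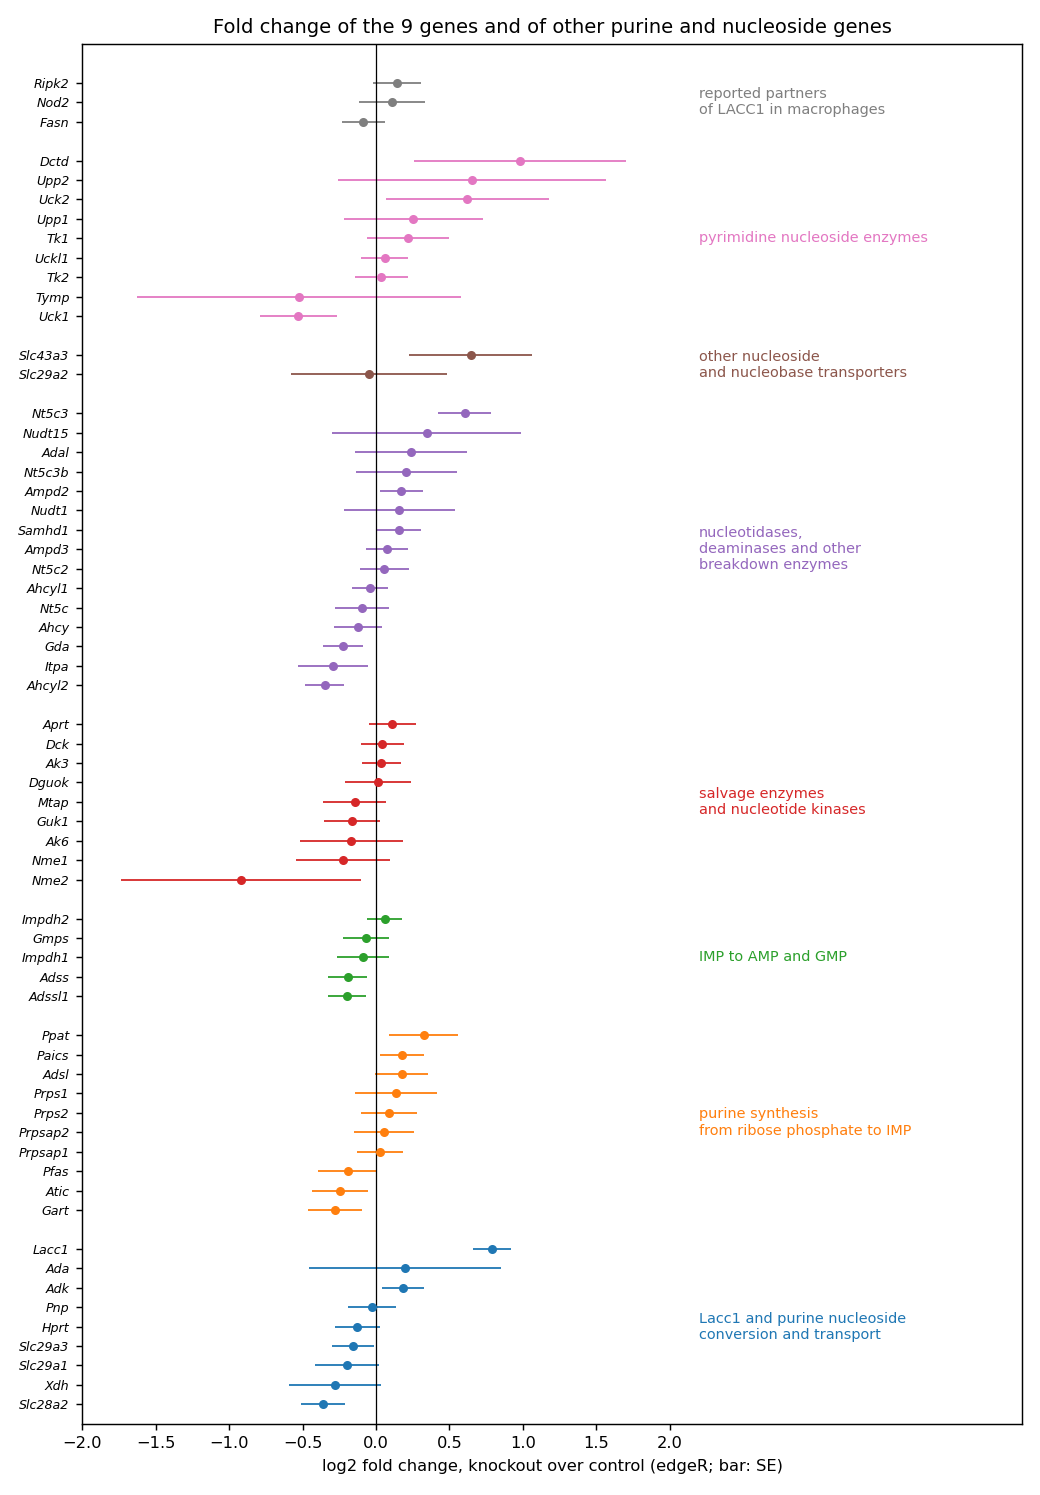
Log2 fold change (knockout over control) with its SE from the edgeR fit for the 9 genes and the tested genes of 7 function lists, coloured by list, with 1 gene not shown. Lacc1 lies at 0.79, the other 8 genes between -0.36 and 0.20, and most genes of the function lists within 0.5 of 0.

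Other nucleoside and nucleobase transporters were sparse. The nucleobase transporter Slc43a3 stood at 0.64 (SE 0.42) from 2.69 ± 0.818 CPM in the control, against 4.21 ± 1.35 CPM in the knockout (SD, n = 3). Slc29a2, the ENT2 gene, stood at -0.05 (SE 0.53) from a similarly low level. Slc29a4 had 4 counts in control replicate 3 and 0 in the other libraries. Pyrimidine nucleoside enzymes had 7 of 9 genes higher and a median of 0.22. The deaminase Dctd had 0.98 (SE 0.72) at 1.14 and 2.25 CPM, and the uridine-cytidine kinase Uck1 -0.53 (SE 0.26). Tk2, the mitochondrial thymidine kinase and the most abundant of them, averaged 29.2 ± 5.55 and 30.0 ± 4.79 CPM.

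Genes for reported partners of LACC1 in macrophages were close between genotypes. Nod2, the sensor of muramyl dipeptide, had 0.11 (SE 0.22), its kinase Ripk2 0.14 (SE 0.16) and the fatty acid synthase Fasn -0.09 (SE 0.15). Nod2 was the most abundant, at 113 ± 30.3 CPM in the control, against 122 ± 30.6 CPM in the knockout (SD, n = 3).

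The genes most like Lacc1 across the 6 libraries were found by the root mean square difference of log2 CPM, centred on each gene's mean, among 9958 protein-coding genes. They were Blcap (difference 0.11), Nthl1 (0.12), Nxpe5 (0.12), Cish (0.14) and Hint3 (0.15). Blcap had 10.2, 8.99 and 11.2 CPM in the control, against 14.6, 16.4 and 14.8 CPM in the knockout, with control replicate 2 lowest and knockout replicate 2 highest, the same as for Lacc1. Nthl1 encodes a DNA base excision glycosylase, Cish a cytokine-induced suppressor of cytokine signalling, and Hint3 a nucleotide-binding hydrolase. All 5 had groups without overlap and the knockout higher, which the measure favours because Lacc1 itself has that split. Of the 8 other purine genes the nearest to Lacc1 was Adk, at rank 1237 with a difference of 0.36. Ada, under the level needed for a rank, had the largest difference of the 8, 0.77, followed by Xdh (0.64, rank 8673) and Slc28a2 (0.62, rank 8505).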

How the data were processed

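PolyA RNA of sorted large peritoneal macrophages was measured in 6 libraries, grouped by their titles. Reads were aligned with HISAT2 2.0.5 and counted with featureCounts 1.5.0-p3 on GRCm38 (mm10), per the submitters' processing notes; the strand setting, annotation release and treatment of multiply mapped reads are not known from the sources used here. The authors deposited raw counts per gene, a normalised signal (count divided by a size factor per library, as the values show), FPKM, and for their comparison a log2 fold change and raw and adjusted p-value per gene. Only the counts were tested. The FPKM values ranked levels per length.

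The whole table was fitted with edgeR 4.0.16 (R 4.3.3): default expression filter (12786 of 20336 genes), TMM scaling, robust quasi-likelihood test of genotype, Benjamini-Hochberg adjustment over all genes at 0.05. CPM values use TMM-scaled totals of tested genes, and log2 CPM a prior count of 2. The SE comes from the F statistic. Gene positions were matched to GENCODE vM21, and sequences are RefSeq's (GRCm38.p6).

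The members and lists were chosen with earlier results of these data known. Named were the 9 genes, Tmem206, and list members with the lowest and highest fold change and highest level (up to 2 further). Also named were the 2 nearest genes of the deposited table on each side of Lacc1. The 5 genes most like Lacc1 were named too (average log2 CPM of at least 1, no Gm, Rik or accession symbol). Gm14085, the neighbours of Slc28a2, Ccr2, Cd226, F13a1, H2-Ab1, Fcgr1, S100a8, S100a9, Camp and Pnp2 were named after their values were seen. Not every gene the rule names is printed, and 1 is not reported here. Alternatives were other scalings and filters, DESeq2 1.42.0, limma-voom (limma 3.58.1), a replicate block, each library left out and a threshold of 0.1. The sum of Slc28a2 and Gm14085 was added after seeing the data. Every pair of libraries differed beyond sampling noise (chi-square per gene of 25.0 or more).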

Additional observations from a re-analysis of the deposited data

How the results depend on the processing

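The count of called genes was 0 in the edgeR fit, 38 with no filter on low counts and 21 with DESeq2. With 1 library left out it ran from 0 to 18: 18 without control replicate 3, 5 without knockout replicate 1 and 2 without control replicate 1. The 8 genes other than Lacc1, and the function-list genes tested under each alternative (50 with the stricter filter, 52 with DESeq2), had 0 calls in all of them, including the threshold of 0.1. The cause of the higher counts was not tested. With the replicate number as a block, 0 genes were called. Deviations of same-numbered libraries correlated at -0.05, -0.06 and 0.08, so the numbers were not taken to pair the libraries. The direction of 4 genes turned. With 1 library left out, the log2 fold change of Ada ran from -0.44 to 0.53, of Pnp from -0.17 to 0.10, of Hprt from -0.21 to 0.0037 and of Xdh from -0.46 to 0.11. Pnp also turned under limma-voom (0.021). The medians of 5 of the 7 function lists changed sign under at least 1 alternative, and no direction is read from them. Lacc1, Adk and the 3 transporters kept their direction under all 13 alternatives. Ada rests on 14 to 49 counts per library.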
